A study of Mus musculus with 2 samples.

Results

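The genes described here are the 9 members of the imprinted cluster on mouse chromosome 7 whose human counterpart is affected in Prader-Willi and Angelman syndromes: Snrpn, Snurf, Snhg14, Ube3a, Ndn, Magel2, Mkrn3, Peg12 and Atp10a. They were chosen by symbol from a list, out of 55536 annotated genes, and they hold 42 of 141862 annotated transcripts. The data are total RNA-seq of left cerebral cortex from 2 female mice aged 36 days. Their strain, B6CASTF1/J, is the F1 hybrid between C57BL/6J and CAST/EiJ. Each mouse gave 1 library from 300 ng of RNA, stranded and reduced in ribosomal RNA, with ERCC spike-ins, and both libraries belong to 1 group with no treatment, second tissue or second age. The libraries are called replicate 2 and replicate 1 after their labels, which name separate animals but give both the same donor record. No difference between the 2 mice can be tested, so each is given as a ratio with an interval that covers counting error only.

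Genomic imprinting silences 1 parental copy of a gene according to the parent it came from. In this cluster a centre at the Snrpn promoter controls a group of genes expressed from the paternal copy, namely Snrpn, Snurf, Snhg14, Ndn, Magel2, Mkrn3 and Peg12. Ube3a is expressed mainly from the maternal copy in neurons, where the long noncoding transcript Snhg14 runs into it on the opposite strand. The imprinting of Atp10a varies between mouse strains and tissues. Parental origin was not measured here: the tables give 1 value per gene or transcript and do not separate the C57BL/6J copy from the CAST/EiJ copy.

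The depth was 35188800 expected counts for replicate 2, against 29417200 for replicate 1 (to the nearest 100), and the 9 genes took 0.136% of them in replicate 2 and 0.150% in replicate 1. Levels are given as TPM (abundance per transcript length, scaled to the same total in each library) and come from the gene table unless the second transcript table, made with another quantifier, is named. The cortex label was checked against markers: Slc17a7, the vesicular glutamate transporter of cortical excitatory neurons, was at 643 TPM in replicate 2 and 615 TPM in replicate 1. Among the 5 hypothalamic markers Agrp, Oxt and Hcrt had 3 or fewer counts in each mouse. Pomc was at 1.31 TPM in replicate 2 and 1.10 TPM in replicate 1, and Avp at 1.16 and 0.90 TPM, from 14 and 8 counts. The choroid plexus transcript Ttr was at 8.29 TPM in replicate 2 and 70.1 TPM in replicate 1, and the 3 choroid plexus markers summed to 9.82 and 72.7 TPM. The red blood cell genes Hba-a1 and Hbb-bs were at 147 and 148 TPM in replicate 2, against 286 and 276 TPM in replicate 1. The part of these cells in the ratios between the mice was not tested, and fewer cells of a type cannot be told apart from less RNA per cell in bulk tissue.

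The cluster's genes spanned a wide range of levels in cortex. At a threshold of 1 TPM in both mice, 6 of the 9 members passed (Snurf, Snhg14, Snrpn, Ube3a, Ndn and Atp10a), against 26.1% of all annotated genes. The order of mean TPM was Snurf, Snhg14, Snrpn, Ube3a, Ndn, Atp10a, Mkrn3, Magel2 and Peg12, and each gene's lower mouse lay above the higher mouse of the next gene. The narrowest step among the 6 was that between Ube3a, at 52.8 TPM in its lower mouse, and Ndn, at 51.3 TPM in its higher mouse. The level of Ndn rests on 1 model of 3694 bases, and RefSeq places the Ndn start inside that exon. A shorter model would raise the TPM of Ndn if the counts fell within it. Reads per base are not given, so the order of Ube3a and Ndn depends on the model. The levels of Mkrn3, Magel2 and Peg12 rested on 7 to 42 counts per mouse, too few to rank them against each other.

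**Figure D1:**
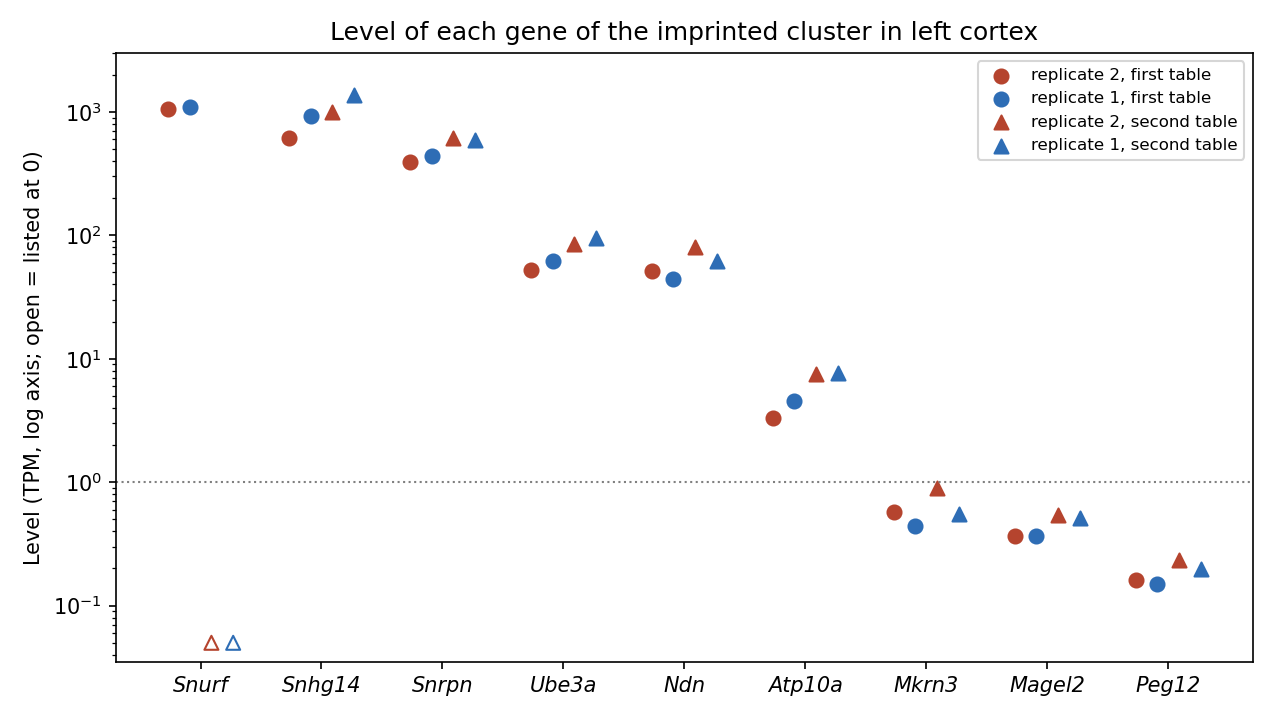
Level of each gene in TPM on a log axis, for replicate 2 and replicate 1 in the gene table (circles) and the second transcript table (triangles), with the 1 TPM threshold dotted. Snurf was at 1060 and 1092 TPM in the gene table and was listed at 0 in the second transcript table, drawn as open symbols at the bottom, while the other 8 genes kept their side of 1 TPM.

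Snrpn (ENSMUSG00000102252.5, chr7:59982495-60140219, minus strand, mm10) encodes SmN, a protein of the Sm ring of spliceosomal particles that takes the place of SmB in neurons. It reached 390 TPM in replicate 2 and 438 TPM in replicate 1, or 414 ± 33.5 TPM (SD, n = 2), and it ranked 134 among all genes by mean TPM. These levels rested on 18167 expected counts in replicate 2 and 15051 in replicate 1. Both mice placed Snrpn far above its paralogue Snrpb, which encodes SmB and SmB', with a level ratio of 8.90 in replicate 2 and 9.49 in replicate 1. Snrpb itself was at 43.9 TPM in replicate 2 and 46.2 TPM in replicate 1. The other Sm ring genes lay close to Snrpb or below it, from Snrpd2 at 30.8 TPM in replicate 2 and 32.4 TPM in replicate 1 down to Snrpf at 7.01 and 4.19 TPM. All 9 genes of the list of Sm partners, which also holds Smn1 and Gemin2 of the complex that loads the Sm ring, were above 1 TPM in both mice, with a median of 25.4 ± 2.62 TPM (SD, n = 2). None of these 9 was 2-fold apart between the mice, beside 770 of all 18187 genes with mean counts of 10 or more. Snrpf came nearest, with a log2 ratio of replicate 2 over replicate 1 of 0.94 after scaling for library size. Its counting interval, 0.51 to 1.42, included a 2-fold difference. However, the expected counts of Snrpf, 135.06 in replicate 2 and 59.66 in replicate 1, were not whole, so reads were divided among genes. In the second transcript table Snrpf was at 12.4 TPM in replicate 2 and 11.1 TPM in replicate 1.

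Snurf (ENSMUSG00000102627.1, chr7:59995449-60005049, minus strand) is the upstream reading frame of the same bicistronic messenger RNA, and encodes a small basic protein. It was listed at 1060 TPM in replicate 2 and 1092 TPM in replicate 1, rank 34 among all genes, from 3138 and 2389 expected counts. The level rests on the model's length: the only annotated Snurf transcript is a bare reading frame of 216 bases, with an effective length of 117 bases after the 99 that the gene table takes off each single-transcript member. Per TPM the ratio of Snurf to Snrpn was 2.72 in replicate 2 and 2.49 in replicate 1, whereas per count it was 0.173 in replicate 2 and 0.159 in replicate 1. All 216 bases of the Snurf model lie in exons of Snrpn-201, beginning at base 63 of that transcript, so no read can belong to Snurf-201 alone. Its sequence is shown because it is the shared stretch that the 2 quantifiers treated differently, with the 14 bases of its first exon that Snrpn-202 lacks in capitals.
Snurf-201: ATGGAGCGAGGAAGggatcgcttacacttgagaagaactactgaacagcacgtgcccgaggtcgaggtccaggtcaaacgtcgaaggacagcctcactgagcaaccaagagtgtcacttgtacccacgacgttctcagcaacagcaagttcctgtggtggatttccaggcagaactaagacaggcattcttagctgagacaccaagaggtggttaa
The 14 bases in capitals lie at chr7:60005036-60005049, and the next exons hold 96 and 106 bases that Snrpn-201, Snrpn-202 and a model of the gene Gm38393 all contain. The model starts with ATG and ends with the stop codon TAA.

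Another gene of the locus, Gm38393 (ENSMUSG00000000948.16, chr7:59974149-60005064, minus strand), is annotated as protein-coding and also contains the whole Snurf reading frame in its 7-exon model. It held 1852 expected counts in replicate 2 and 2105 in replicate 1. Most of them, 91.0% in replicate 2 and 89.6% in replicate 1, were given to Gm38393-203 in the first transcript table. That model has 1 exon and shares no exon bases with Snrpn or Snurf. Of the region's 27 genes with mean counts of 10 or more, 6 had expected counts that were not whole numbers (tolerance 0.005): Snrpn, Snurf and Gm38393, which share exons, and 3 processed pseudogenes. Such counts mean that reads were divided among genes. The gene-level values of Snrpn and Snurf are therefore uncertain, while their sum with Gm38393 is less so. That sum was 23156 counts in replicate 2 and 19545 in replicate 1 in the gene table, and 22279 and 18573 in the second transcript table. The tables thus differed by 3.79% in replicate 2 and 4.97% in replicate 1 for the sum, and by far more in how they divided it.

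The tables disagreed on how the reads of the Snrpn locus were divided. In the first transcript table Snrpn-201 (ENSMUST00000059305.16), which starts at the imprinting centre, took 95.2% of Snrpn's level in replicate 2 and 96.1% in replicate 1. Snrpn-202 (ENSMUST00000098402.4), whose start lies 135108 bases upstream, took 4.81% in replicate 2 and 3.86% in replicate 1. In the second transcript table Snrpn-202 took 99.97% in replicate 2 and 100% in replicate 1, and Snurf was listed at 0 in both mice. Both models hold the full SmN reading frame of 720 bases and share 1849 exon bases. Only 47 bases belong to Snrpn-201 alone and 227 to Snrpn-202 alone among the models of the locus, and neither table gives reads per base. Which start the cortex used cannot be read from these tables.

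**Figure D2:**
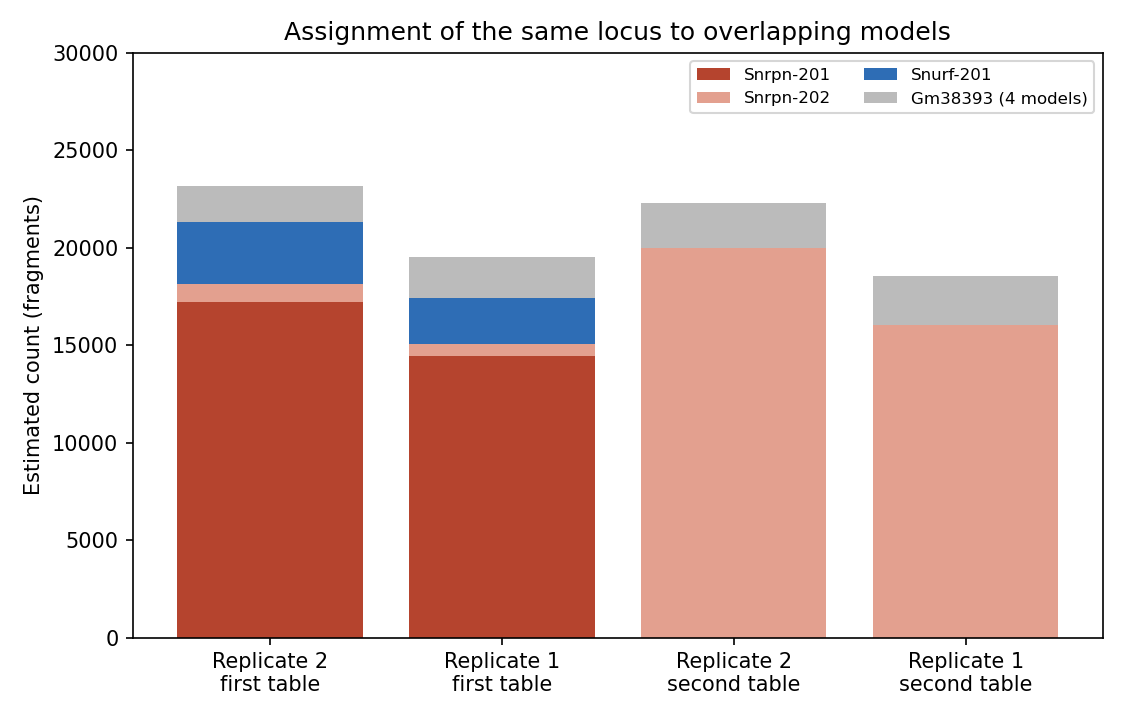
Estimated counts given to the overlapping models of the Snrpn locus, as stacked bars for replicate 2 and replicate 1 in the first and the second transcript table. The bars of each mouse reach nearly the same height in both tables (23156 and 22279 in replicate 2, 19545 and 18573 in replicate 1), but Snrpn-201 and Snurf-201 fill most of the bar in the first table and Snrpn-202 does in the second.

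**Figure D3:**
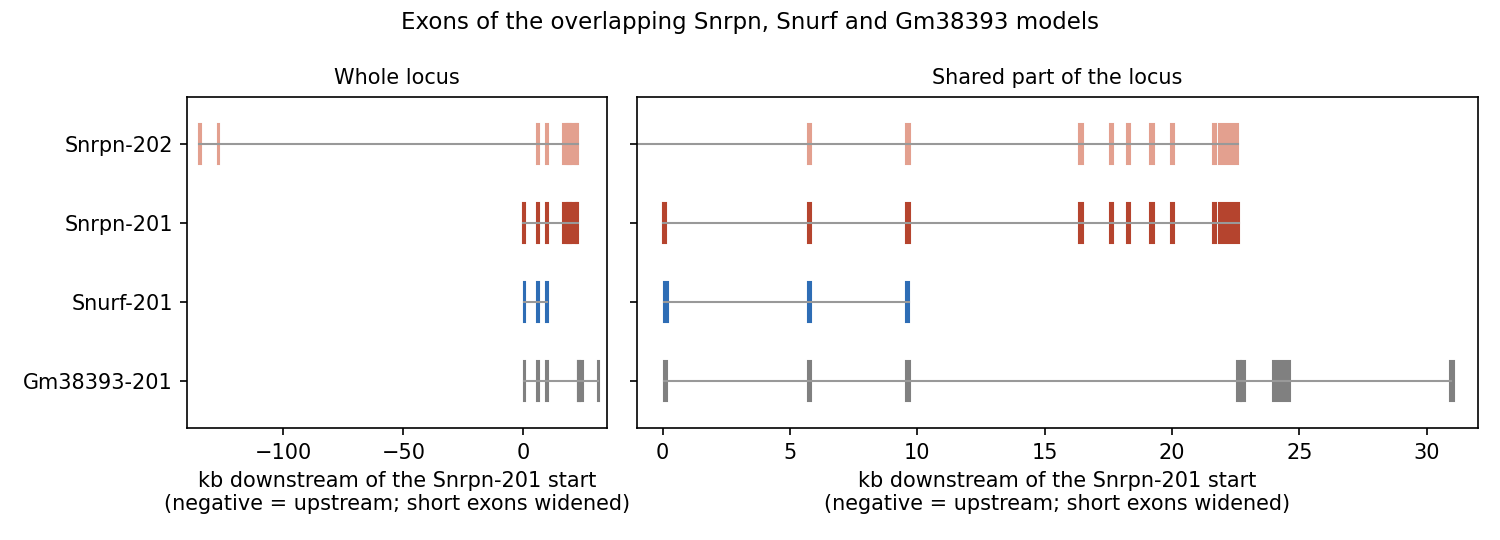
Exons of 4 overlapping models, in kb downstream of the Snrpn-201 start, for the whole locus (left) and the shared part (right). The 3 exons of Snurf-201 coincide with exons of Snrpn-201 and of the Gm38393 model, and Snrpn-202 differs from Snrpn-201 in its upstream exons.

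Because the tables disagree about the start, the promoters of these starts were compared. RefSeq (GRCm38.p6) lists 4 starts for Snrpn, the nearest of which is also the start of Snurf and the farthest the start of Snhg14, and each is given with 250 bases before and 50 after the start. The Snhg14 models measured here lie downstream of chr7:59975759 on the minus strand and reach none of these starts. All 4 stretches contain the letters ACGCATGCGT, a run that reads the same on both strands, and the Ndn promoter contains its first 9 letters, ACGCATGCG. Searched on both strands, the 9 letters were found in 263 of 32817 RefSeq promoters of the same length (0.801%) and the 10 letters in 33 (0.101%). The motif lies within the kind of sequence that the transcription factor NRF1 recognises. It was noticed after the sequences were read, and a match is not a binding site. The promoters of Ube3a, Atp10a, Magel2, Mkrn3 and Peg12 did not hold the 9 letters. The Ndn stretch lies inside the single exon of the Ndn model measured here. The sequences of the major start, the start near that of Snrpn-202, the farthest start and Ndn are shown with those letters in capitals.
Snurf and Snrpn, chr7:60005150-60005449, minus strand: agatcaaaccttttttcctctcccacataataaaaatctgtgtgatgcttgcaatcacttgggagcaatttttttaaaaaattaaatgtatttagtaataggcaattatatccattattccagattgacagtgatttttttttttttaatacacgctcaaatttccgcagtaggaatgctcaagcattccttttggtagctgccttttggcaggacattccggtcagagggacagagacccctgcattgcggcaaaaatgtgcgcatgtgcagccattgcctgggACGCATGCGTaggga
Snrpn, chr7:60140176-60140475, minus strand: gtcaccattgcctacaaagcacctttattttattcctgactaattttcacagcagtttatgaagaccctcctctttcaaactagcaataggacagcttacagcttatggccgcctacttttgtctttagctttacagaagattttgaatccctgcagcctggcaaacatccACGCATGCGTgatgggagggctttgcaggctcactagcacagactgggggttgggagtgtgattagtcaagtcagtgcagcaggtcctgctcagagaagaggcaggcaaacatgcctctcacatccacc
Snhg14 and Snrpn, chr7:60450128-60450427, minus strand: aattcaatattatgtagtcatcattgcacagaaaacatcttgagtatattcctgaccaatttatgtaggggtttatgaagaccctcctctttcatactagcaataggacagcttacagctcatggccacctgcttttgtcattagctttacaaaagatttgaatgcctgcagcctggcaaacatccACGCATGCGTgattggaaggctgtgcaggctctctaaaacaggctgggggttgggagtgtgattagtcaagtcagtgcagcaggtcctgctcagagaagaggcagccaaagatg
Ndn, chr7:62348027-62348326, plus strand: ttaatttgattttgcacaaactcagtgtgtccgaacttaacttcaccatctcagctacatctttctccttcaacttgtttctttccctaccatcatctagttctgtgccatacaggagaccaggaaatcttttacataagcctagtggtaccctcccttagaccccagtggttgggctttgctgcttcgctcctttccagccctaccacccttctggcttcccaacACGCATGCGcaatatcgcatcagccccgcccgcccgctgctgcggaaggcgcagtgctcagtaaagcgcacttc
At the 3 upstream starts the letters begin 64 to 79 bases before the RefSeq start, and at the major start they begin 35 bases after the RefSeq start. The model Snrpn-201 starts at chr7:60005111, downstream of the whole stretch shown for the major start. Counted from Snrpn-201 the letters there lie before the start, so this contrast depends on the annotation. The 3 upstream promoters are near copies of each other, with identical runs of 49 to 62 bases between pairs, whereas the major promoter shares no run longer than 10 bases with any of them. The stretch of the major promoter holds 7 CpG dinucleotides and the 3 upstream promoters hold 2 to 4, beside a median of 7 over all promoters. That stretch does not reach the Snrpn-201 start, and CpG beyond it were not counted. Ube3a, with 29 CpG, and Atp10a, with 20, held the most among the members.

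Snhg14 (ENSMUSG00000100826.6, chr7:59307924-59975759, minus strand) is the host transcript of the cluster's small nucleolar RNAs (snoRNAs), a class of which many members guide the chemical modification of other RNAs. It was at 610 TPM in replicate 2 and 928 TPM in replicate 1, or 769 ± 225 TPM (SD, n = 2), rank 73 among all genes. Its counts were 15457 in replicate 2 and 17427 in replicate 1, so replicate 2 was lower although its library was larger. After scaling for library size the log2 ratio of replicate 2 over replicate 1 was -0.39, with a counting interval of -0.42 to -0.35. The second transcript table gave Snhg14 24526 counts in replicate 2 and 28356 in replicate 1, which is 1.59 and 1.63 times the gene table, and a log2 ratio of -0.37. No other member's counts differed by as much between the tables apart from Snurf.

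The annotation lists 15 Snhg14 transcripts over 668 kb, and the tables ranked them differently. The gene's TPM rests on an effective length of 1002 bases in replicate 2 and 1004 in replicate 1. Its level and rank therefore depend on which models are given the reads. In the first transcript table Snhg14-203, a model of 670 bases, led with 54.9% of the gene's level in replicate 2 and 52.1% in replicate 1. That model had 4837 counts in replicate 2 and 5160 in replicate 1, against 1498 and 1533 in the second table. In the second table Snhg14-206 led with 26.6% in replicate 2 and 27.2% in replicate 1, and Snhg14-203 took 23.6% and 21.8%. Of the members with several transcripts only Atp10a kept the same leading transcript by TPM in both tables.

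Along Snhg14 the difference between the mice was larger at the Ube3a end. The 4 transcripts nearest Ube3a (Snhg14-208, Snhg14-210, Snhg14-212 and Snhg14-213) together had 3219 counts in replicate 2 and 4274 in replicate 1, a log2 ratio of -0.62 (counting interval -0.69 to -0.55). The 8 transcripts in the middle of the gene had 8340 and 8946 counts and a log2 ratio of -0.31 (-0.36 to -0.27). The 3 transcripts nearest Snrpn had 3898 and 4207 counts and a log2 ratio of -0.32 (-0.39 to -0.26). The second table gave -0.59, -0.34 and -0.26 in the same order. The interval of the Ube3a end did not overlap those of the other zones in either table, but the zones were drawn after the values were seen and 1 library per mouse allows no test. Within the middle zone, Snhg14-214 was at -1.05 in the first table, from 77 and 140 counts, and at -0.50 in the second. Snhg14-215 beside it was at -1.45 in the first table, from 5 and 15 counts, and at 0.24 in the second, from 3 and 2 counts.

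**Figure D4:**
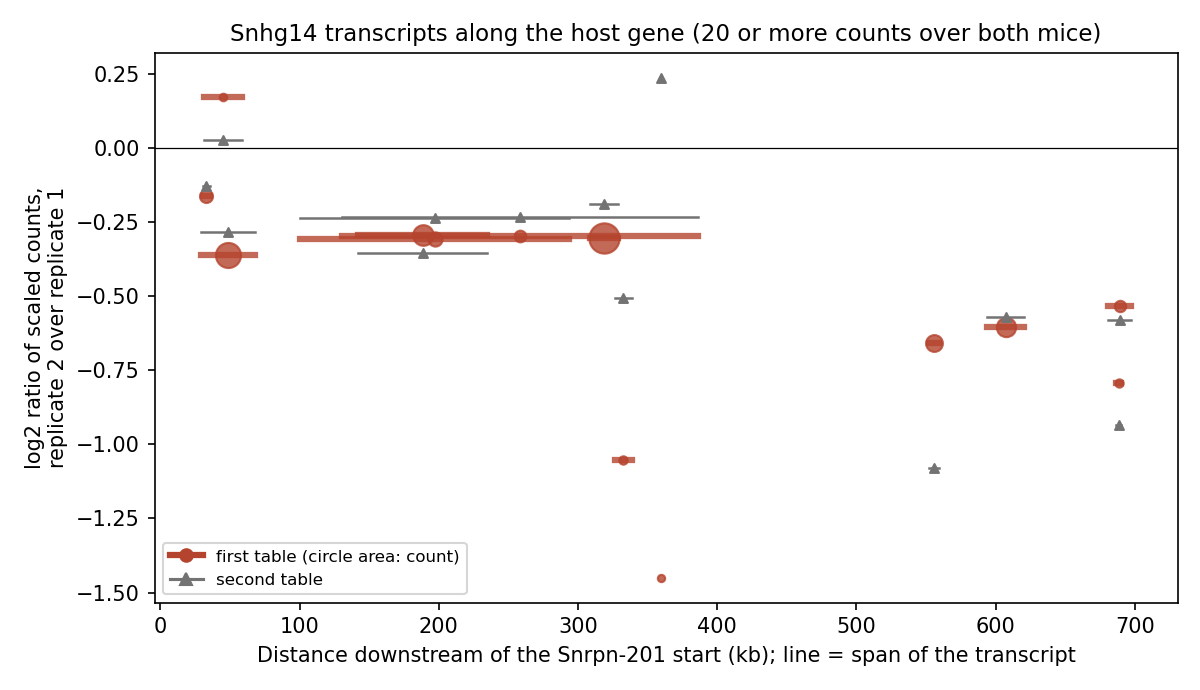
Log2 ratio of scaled counts, replicate 2 over replicate 1, of the Snhg14 transcripts with 20 or more counts over both mice, against distance downstream of the Snrpn-201 start, with lines for each transcript's span. In the first table the 3 best counted transcripts (Snhg14-203, Snhg14-206 and Snhg14-211) lie between -0.36 and -0.29 and the 4 at the Ube3a end between -0.79 and -0.53, while the smallest marker, Snhg14-215, rests on 5 and 15 counts.

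The snoRNAs that Snhg14 hosts could not be measured. The region from the first to the last base of the 9 genes, chr7:58656166-62464510, holds 279 annotated genes, of which 210 are snoRNA genes, all on the minus strand and 208 of them within Snhg14. Their lengths are 67 to 94 bases, all 210 have an effective length of 0 in the gene table, and all 210 are listed at 0 in both mice in both tables. A 0 there says nothing about the RNA, since every one of the 2398 annotated genes with an effective length of 0 is listed at 0. The same holds for the 20 miRNA genes of the region. Most snoRNA genes fall into 2 arrays of repeated copies, and the commonest sequence of each is shown to make plain how short and how alike the copies are, with the letters of the C box (TGATGA) and D box (CTGA) in capitals.
Snord116l11, chr7:59902213-59902306, minus strand: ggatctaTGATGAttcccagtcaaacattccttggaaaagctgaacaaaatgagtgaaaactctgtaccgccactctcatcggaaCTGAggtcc
Gm23560, chr7:59617612-59617690, minus strand: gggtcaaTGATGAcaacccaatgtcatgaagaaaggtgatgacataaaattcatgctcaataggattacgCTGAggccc
The array nearer Snrpn has 68 genes of 94 bases in 25 different sequences, 17 of them named Snord116, and 30 genes carry exactly the sequence shown for Snord116l11. The array nearer Ube3a has 130 genes of 79 bases in 52 sequences, and 33 carry the sequence of Gm23560. Within the 94-base array every copy matched the commonest at 90 or more of its bases. Copies of the 79-base array matched theirs at 69 or more bases, with a median of 78. Identical copies cannot be told apart by sequence.

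Ube3a (ENSMUSG00000025326.12, chr7:59228750-59311536, plus strand) encodes the ubiquitin ligase E6AP, founder of the HECT family and the gene lost in Angelman syndrome. It was at 52.8 TPM in replicate 2 and 61.5 TPM in replicate 1, or 57.2 ± 6.14 TPM (SD, n = 2), from 6023 and 5632 counts. Its scaled log2 ratio was -0.12 (counting interval -0.17 to -0.06), and 23.9% of the 12615 genes counted 100 times or more on average had a ratio as low or lower. Snhg14 stood above Ube3a in both mice, with a TPM ratio of 11.5 in replicate 2 and 15.1 in replicate 1, and a count ratio of 2.57 and 3.09. The genes overlap on opposite strands over 3613 bases, of which 1803 are exon bases in both, or 8.74% of the exon bases of Ube3a and 6.91% of those of Snhg14. No source used here gives the strand setting of the counting. In the gene table the expected counts of both genes were whole numbers, so no reads were divided between them there. In the second transcript table the counts of Ube3a, 6380.62 in replicate 2 and 6020.95 in replicate 1, were not whole. There, reads of this stretch cannot be told apart with certainty.

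The level of Ube3a lay within the range of its relatives. Herc2, a HECT ligase that binds it, was at 54.4 TPM in replicate 2 and 67.8 TPM in replicate 1, and the level ratio of Ube3a to Herc2 was 0.971 in replicate 2 and 0.907 in replicate 1. The list of its partners and HECT relatives had 6 of 6 genes above 1 TPM in both mice, with a median of 59.2 ± 3.65 TPM (SD, n = 2), from Ube3c at 28.2 TPM in replicate 2 and 32.6 TPM in replicate 1 to Nedd4 at 105 and 122 TPM. The ubiquitin-conjugating enzyme Ube2l3, which passes ubiquitin to Ube3a, was at 58.9 TPM in replicate 2 and 55.8 TPM in replicate 1.

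Of the 18 annotated Ube3a transcripts, 4 took 5% or more of the gene's level in a mouse. Ube3a-203, the 9856-base model with a reading frame of 2610 bases, led the first transcript table with 36.6% in replicate 2 and 40.2% in replicate 1. It held 4771 of the gene's counts in replicate 2 and 4510 in replicate 1, and 79.6% of them on average over the mice. Ube3a-201, with a reading frame of 2547 bases, took 12.1% in replicate 2 and 11.1% in replicate 1. The short models Ube3a-211, of 579 bases, and Ube3a-209, of 616 bases, took 19.5% and 17.7% in replicate 2, against 22.8% and 10.6% in replicate 1. They did so on 125 and 122 counts in replicate 2, against 126 and 63 in replicate 1. The second table put Ube3a-211 first, with 37.5% in replicate 2 and 35.8% in replicate 1, and Ube3a-203 next, with 31.9% and 32.1%. By counts, Ube3a-203 was the main transcript in both tables.

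Ndn and Magel2 encode MAGE family proteins, necdin in differentiated neurons and a partner of the ligase Trim27 in endosomal sorting. Ndn (ENSMUSG00000033585.5, chr7:62346569-62350262, plus strand) was at 51.3 TPM in replicate 2 and 44.5 TPM in replicate 1, or 47.9 ± 4.79 TPM (SD, n = 2), from 4663 and 2992 counts. Its log2 ratio was 0.43 (counting interval 0.36 to 0.49), a value that 2.55% of those 12615 genes reached or passed. Scaling to the ERCC spike-ins moved the ratios of well-counted genes nearly alike, by -0.45. Under it the ratio of Ndn was -0.02 and the median of all genes -0.42. Ndn was the only member of the 6 with mean counts of 100 or more whose interval lay wholly above the middle 50% of all genes, -0.11 to 0.14.

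Magel2 (ENSMUSG00000056972.6, chr7:62377010-62381640, plus strand) was at 0.37 TPM in both mice, from 42 counts in replicate 2 and 31 in replicate 1. Magel2 is known for its role in the hypothalamus. The level of Ndn was 139 times that of Magel2 in replicate 2 and 120 times in replicate 1. The list of MAGE genes and Magel2 partners was expressed throughout, with 8 of 8 genes above 1 TPM in both mice and a median of 37.9 ± 3.63 TPM (SD, n = 2). Maged1, another neuronal MAGE gene, was at 181 TPM in replicate 2 and 188 TPM in replicate 1. Trim27 was at 13.8 TPM in replicate 2 and 15.8 TPM in replicate 1, and Usp7, the deubiquitinating enzyme of the same complex, was at 54.5 and 71.4 TPM. Each of these partners stood above 10 TPM in both mice, where Magel2 itself was below 1 TPM.

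Mkrn3 (ENSMUSG00000070527.3, chr7:62417593-62420139, minus strand) encodes a makorin RING-finger ubiquitin ligase that restrains the onset of puberty. It was at 0.57 TPM in replicate 2 and 0.44 TPM in replicate 1, from 35 and 20 counts. Its biallelic relative Mkrn1 was at 61.3 TPM in replicate 2 and 67.5 TPM in replicate 1, and the ratio of Mkrn3 to Mkrn1 was 0.0093 in replicate 2 and 0.0065 in replicate 1. Mkrn2 was at 14.0 TPM in replicate 2 and 15.8 TPM in replicate 1.

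Peg12 (ENSMUSG00000070526.2, chr7:62461871-62464510, minus strand), also called Frat3, belongs to the FRAT family of proteins that bind the kinase Gsk3b. It had 10 counts in replicate 2 and 7 in replicate 1, for 0.16 and 0.15 TPM, the lowest level of the 9. Its relative Frat1 was at 7.15 TPM in replicate 2 and 8.19 TPM in replicate 1, so the ratio of Peg12 to Frat1 was 0.022 in replicate 2 and 0.018 in replicate 1. Gsk3b was at 70.3 TPM in replicate 2 and 84.1 TPM in replicate 1. Ndn, Magel2, Mkrn3 and Peg12 are all annotated with 1 exon and 1 transcript each, and their expected counts in the gene table were whole numbers, so no reads were divided there. The second transcript table gave Magel2 43.2 counts in replicate 2 and 33.8 in replicate 1, which are not whole.

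Atp10a (ENSMUSG00000025324.8, chr7:58656166-58829420, plus strand) encodes a P4-ATPase, an enzyme that moves phospholipids to the inner leaflet of membranes. It was at 3.34 TPM in replicate 2 and 4.56 TPM in replicate 1, or 3.95 ± 0.863 TPM (SD, n = 2), from 371 and 454 counts. Its log2 ratio was -0.50 (counting interval -0.71 to -0.30), and 2.78% of the same 12615 genes were as low or lower. Full-length Atp10a-201 took 80.4% of its level in replicate 2 and 100% in replicate 1, because Atp10a-202, a 688-base model, was given 9.77 counts in replicate 2 and 0 in replicate 1. In the second table Atp10a-202 had 22.2 counts in replicate 2 and 6.58 in replicate 1, and Atp10a-201 took 55.4% and 84.2%.

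Among the other P4-ATPases Atp10a was one of the low ones. Atp10d was at 1.52 TPM in replicate 2 and 2.63 TPM in replicate 1, and the ratio of Atp10a to Atp10d was 2.2 in replicate 2 and 1.73 in replicate 1. Atp9a was at 182 TPM in replicate 2 and 181 TPM in replicate 1, and Tmem30a, the subunit that most P4-ATPases need to leave the endoplasmic reticulum, was at 102 and 121 TPM. Of the 7 genes of this list 6 were above 1 TPM in both mice, and Atp10b was the exception at 0.47 TPM in replicate 2 and 0.50 TPM in replicate 1.

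Between the mice the ratios of the cluster's genes went both ways. When a mean count of 100 or more was asked of a gene, none of the 6 members left was 2-fold or more apart, beside 0.753% of all 12615 genes (95), and none of the 3 others was 2-fold apart either. Of the 9 log2 ratios 6 were above 0 (Snrpn, Snurf, Ndn, Magel2, Mkrn3 and Peg12) and 3 below (Ube3a, Snhg14 and Atp10a), with a median of 0.18 against 0.02 over the 12615 genes. Over the 6 well-counted members alone the median was -0.03. The intervals of Magel2, Mkrn3 and Peg12 all included 0, that of Peg12 running from -1.24 to 1.93. Scaled to the spike-ins, Snrpn, Snurf, Ndn, Magel2 and Peg12 also lay below 0, with the median of all genes at -0.42. The sum of Snrpn, Snurf and Gm38393, among which the reads are divided uncertainly, was at 0.03 (0.01 to 0.06), and like Snrpn it lay below 0 when scaled to the spike-ins. Taken apart, Snrpn was at 0.06 (0.03 to 0.09), Snurf at 0.18 (0.10 to 0.26) and Gm38393 at -0.40 (-0.49 to -0.31). Most counts of Gm38393 lay on Gm38393-203, which shares no exon bases with Snrpn or Snurf. Snhg14, downstream on the same strand, was at -0.39 (-0.42 to -0.35).

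**Figure D5:**
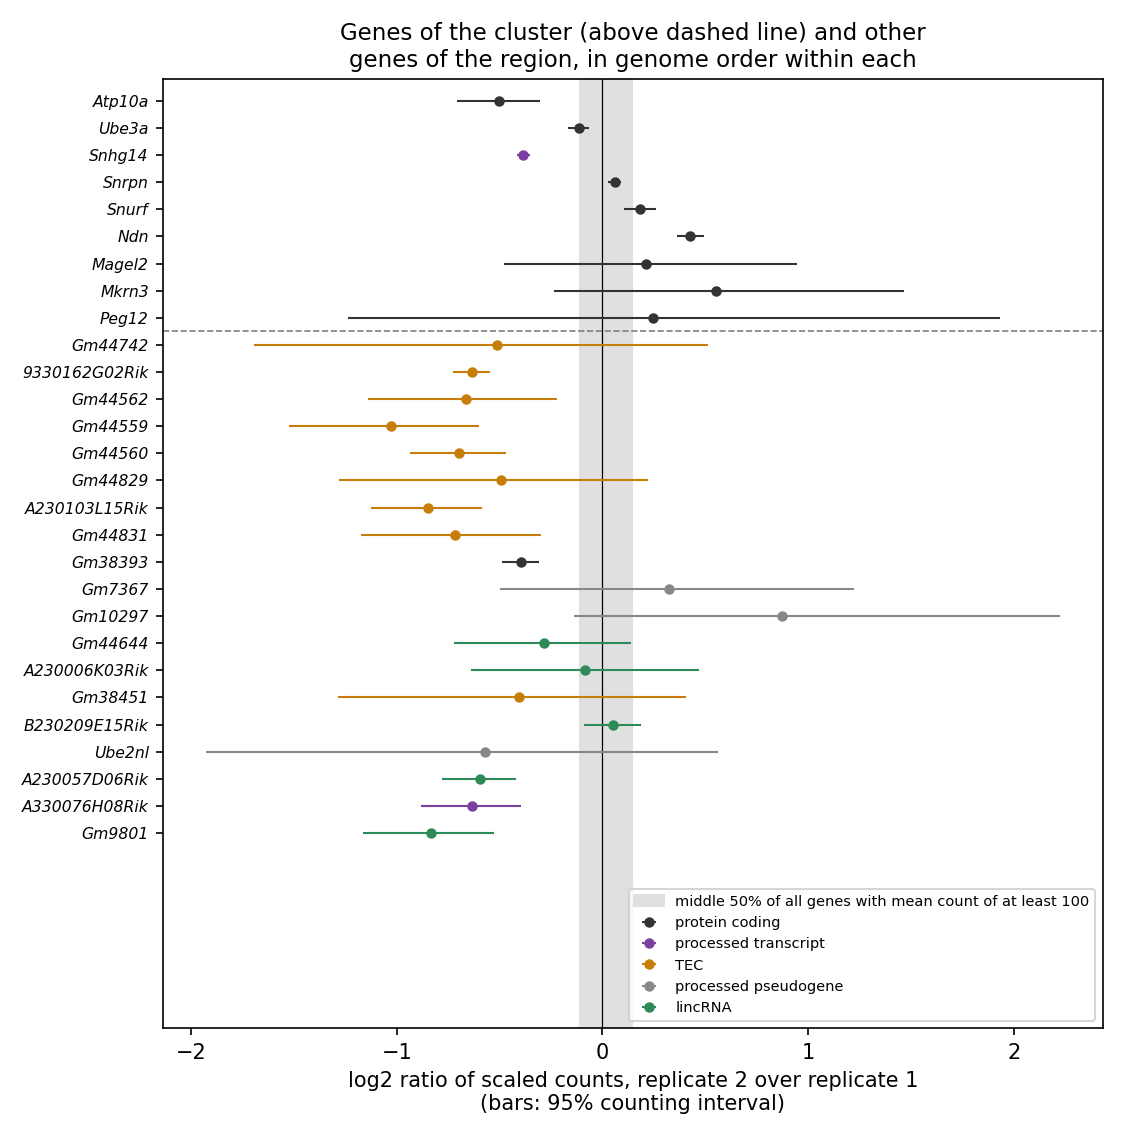
Log2 ratio of scaled counts, replicate 2 over replicate 1, with 95% counting intervals, for the 9 genes of the cluster (above the dashed line) and the 19 other genes of the region with mean counts of 10 or more, coloured by annotated type. The grey band holds the middle 50% of the 12615 genes (-0.11 to 0.14); Ndn lies above it, Snhg14, Atp10a and most noncoding genes below it.

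The region's other transcripts were mostly lower in replicate 2. Of the 19 genes that are not members and had mean counts of 10 or more, 16 had a ratio below 0 and 3 above, with a median of -0.57. Among the 15 of them annotated as lincRNA, TEC (mostly single-exon models still to be tested by experiment) or processed transcript, 14 were below 0 and the median was -0.63. This lies close to the library-wide value for TEC genes: 91.8% of the 1253 TEC genes counted 10 times or more on average were below 0, with a median of -0.75, against 44.8% and 0.02 for protein-coding genes. For lincRNA genes the library-wide median was -0.17. Snhg14 at -0.39 lay below the median of -0.10 of the 278 processed transcript genes and within their middle 50%, which reached down to -0.43.

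Inside Ube3a, 4 noncoding models on the opposite strand, all annotated as TEC, carried counts. 9330162G02Rik, which overlaps the first 26039 bases of Ube3a, had 1756 counts in replicate 2 and 2354 in replicate 1. Gm44560 had 263 and 369 counts, Gm44562 had 71 and 98, and Gm44559 had 63 and 113. All 4 were lower in replicate 2, from -0.63 for 9330162G02Rik to -1.03 for Gm44559. Their summed log2 ratio of -0.66 was near the -0.62 of the Ube3a end of Snhg14. It was also near the -0.71 of the sum over all 1253 TEC genes counted 10 times or more on average. Of those TEC genes 91.8% were below 0, so these values are not particular to the locus. Gm44559 was the single one of the region's 27 genes with mean counts of 10 or more that was 2-fold apart, at a mean count below 100, and was at -0.72 in the second table. Over all annotated genes with such counts 770 of 18187 were 2-fold apart, and 373 of the 1253 TEC genes. Ube3a itself, read on the other strand, was at -0.12. Within the span of Snhg14 and on its strand, A230103L15Rik had 191 counts in replicate 2 and 298 in replicate 1, a log2 ratio of -0.85. Gm44831, likewise placed, had 76 and 109 counts and a log2 ratio of -0.72. Both are TEC models too. Whether these models and Snhg14 are parts of 1 long transcript was not tested.

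Between Snrpn and Ndn, 6 of 7 noncoding genes had ratios below 0, to different degrees. A230057D06Rik was at -0.60, A330076H08Rik at -0.64 and Gm9801 at -0.83, while Gm38451 at -0.40, Gm44644 at -0.28 and A230006K03Rik at -0.08 had intervals that included 0. B230209E15Rik, the exception, was the best counted of this stretch, with 926 counts in replicate 2 and 772 in replicate 1, and lay at 0.05 (counting interval -0.09 to 0.19).

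The biallelic genes that flank the cluster went both ways by small amounts in the same comparison. Of the list of 9 neighbours 8 had mean counts of 10 or more, 4 with ratios above 0 and 4 below, a median of 0.00 and none 2-fold apart. Over all genes with such counts 770 of 18187 were 2-fold apart. Gabra5, a subunit of the GABA-A receptor, was at 20.3 TPM in replicate 2 and 21.01 TPM in replicate 1 with a log2 ratio of 0.19. Nipa1, a magnesium transporter, was at 28.9 TPM in replicate 2 and 30.5 TPM in replicate 1 with 0.15, and Cyfip1, a regulator of actin and translation, was at 26.6 and 33.5 TPM with 0.01. Below 0 lay Gabrg3, another subunit of that receptor, at 8.70 TPM in replicate 2 and 11.8 TPM in replicate 1 with -0.14 (counting interval -0.24 to -0.04), and Herc2 with -0.12 (-0.15 to -0.09). The intervals of Gabra5 (0.07 to 0.32) and Nipa1 (0.06 to 0.24) lay above 0. Oca2, the melanosomal transporter gene, was at 0.12 TPM in replicate 2 and 0.10 TPM in replicate 1, from 9 and 5 counts. TPM was lower in replicate 2 for most of these genes even where the scaled ratio was near 0. TPM is a share of a fixed total, of which 7SL RNA took 30.1% in replicate 2 and 24.3% in replicate 1.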

How the data were processed

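Total RNA-seq of the left cerebral cortex of 2 mice was used, 1 library each. Per the labels the build is mm10, and deposited notes name GENCODE M21. Aligner, quantifiers and strand setting: not given in the sources used here. Per the file headers, the authors' gene table and first transcript table hold expected counts and TPM, the first transcript table also the percent of its gene that each transcript takes, and the second transcript table estimated counts and TPM. TPM is scaled by the authors over all rows, spike-ins and 7SL RNA included, and reads of CAST/EiJ alleles were set against the C57BL/6J reference, whose effect was not tested.

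From these, expected counts were rounded to whole numbers and scaled to TMM sizes (R 4.3.3, edgeR 4.0.16) with a prior count of 2, and ratios run replicate 2 over replicate 1. Intervals (95%, exact Clopper-Pearson) are those of replicate 2's share of the counts. They cover counting error only, since reads carry no molecular identifiers. The second transcript table was summed per gene. The ratio step was tested on simulated data. DESeq2 1.42.0 gave size factors, and Python 3.11.15 with pandas 2.3.3, scipy 1.17.1 and matplotlib 3.10.9 did the rest. Promoters are from RefSeq (GRCm38.p6), matched by symbol for all 9 genes, and transcript sequences are from GENCODE M21. Named genes are the 9 members, the region's genes counted 10 times or more on average and 8 related lists. Members, lists, pairs and alternatives were chosen with earlier results of these data known.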

Additional observations from a re-analysis of the deposited data

How the results depend on the processing

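No paired analysis was possible because both mice belong to 1 group. The count of 0 members 2-fold apart held under DESeq2 size factors, spike-in and total count scaling, a prior count of 0.5, TMM with no filter, the second transcript table and a lower count minimum of 10. The last 2 cover 8 members each, as the second table lists Snurf at 0 and Peg12 is under that minimum. The median log2 ratio of the members was 0.18; it was -0.27 with spike-in scaling and -0.028 over the 6 members with mean counts of 100 or more, an alternative chosen after seeing the data. The ratio of Snurf to Snrpn was 2.61 on average; it was 0 in the second transcript table, which lists Snurf at 0, and 0.166 in expected counts. The ratio of Snhg14 to Ube3a was 13.3 on average, 11.5 to 15.1 with a mouse left out, and 2.83 in expected counts (no length correction). With a mouse left out, the ratio of Snurf to Snrpn ran from 2.49 to 2.72. At 1 TPM 6 members passed, and 5 in the second table. The TPM levels of all 9 genes moved in the second table and after rescaling over nuclear protein-coding genes and the members. Depth limits Magel2, Mkrn3 and Peg12, whose ratios rest on 7 to 42 counts per mouse.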

Other observations

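Genes for proteins that maintain imprints or repress the silenced copies were measured in the same libraries. Of the 7 genes of this list 6 were above 1 TPM in both mice. Trim28, the corepressor recruited by zinc finger proteins, was at 80.5 TPM in replicate 2 and 89.4 TPM in replicate 1, and Ehmt2, a histone H3 lysine methyltransferase, was at 65.8 and 77.4 TPM. The maintenance DNA methyltransferase Dnmt1 was at 16.3 TPM in replicate 2 and 18.1 TPM in replicate 1, while its cofactor Uhrf1, which is tied to dividing cells, was at 0.54 and 0.41 TPM. Zfp57, the zinc finger protein that marks imprinting centres, was at 4.65 TPM in replicate 2 and 7.59 TPM in replicate 1, with a log2 ratio of -0.50 (counting interval -0.79 to -0.21). None of the 7 was 2-fold apart between the mice, beside 770 of all 18187 genes with mean counts of 10 or more.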
